A study of Mus musculus with 46 samples.

Results

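The 10 genes described here encode the enzymes that make serine from glucose carbon and hand its carbon to the folate cofactors. Phgdh, Psat1 and Psph belong to serine synthesis, Shmt2, Mthfd2, Mthfd1l and Aldh1l2 to the mitochondrial folate branch, and Shmt1, Mthfd1 and Aldh1l1 to the cytosolic folate branch. They were picked by gene symbol, with earlier results of these data known. All 10 were found, each at 1 identifier, among the 55487 genes listed for every library. Each member had more than 3 counts in every library, with the lowest count, 4, seen for Phgdh and Aldh1l2, and all 10 passed the filter on low counts in every comparison.

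RNA was measured by sequencing in 46 mouse libraries of 11 groups, which came from 3 experiments with their own controls, and the labels call the libraries of a group biological replicates. The Tfam islets were 5 Tfam control and 4 Tfam KO libraries from females, and 3 Tfam control and 2 Tfam KO libraries from males. The Clec16a islets were 4 Clec16a control and 4 Clec16a KO libraries on a diet labelled RFD, and 6 Clec16a control and 5 Clec16a KO libraries on a diet labelled HFD. The livers were 6 control, 4 Mfn DKO and 3 Tfam KO libraries whose descriptions all carry the letters AAV, controls included. Islets of all groups had been cultured overnight, and livers had been flash frozen. The labels name neither the age of the mice, nor the cells in which a gene was deleted, nor what AAV carried, nor the sex of the Clec16a and liver mice, and they do not write out HFD and RFD.

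Serine synthesis branches off glycolysis. Phgdh, phosphoglycerate dehydrogenase, takes the first and rate-limiting step, the aminotransferase Psat1 the next, and the phosphatase Psph releases serine. Shmt2 in mitochondria and Shmt1 in the cytosol split serine into glycine and a folate-bound carbon unit. In mitochondria Mthfd2 oxidizes that unit and Mthfd1l releases it as formate, which the cytosolic enzyme Mthfd1 loads back onto folate for purines, thymidylate and methyl groups. Aldh1l2 and its cytosolic partner Aldh1l1 oxidize formyl-folate to carbon dioxide and yield NADPH. Serine synthesis and the mitochondrial branch are known targets of Atf4, a transcription factor of the cellular stress response, and Aldh1l1 is known as an abundant liver enzyme.

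On GRCm38 with GENCODE M21 the serine synthesis genes are Phgdh (chr3:98313170-98339990), Psat1 (chr19:15904678-15947337) and Psph (chr5:129765558-129787449). The mitochondrial folate genes are Shmt2 (chr10:127517123-127522444), Mthfd2 (chr6:83305691-83325908), Mthfd1l (chr10:3973118-4167081) and Aldh1l2 (chr10:83487450-83534140), and the cytosolic ones Shmt1 (chr11:60788104-60811718), Mthfd1 (chr12:76255298-76319803) and Aldh1l1 (chr6:90486427-90600203).

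The promoters of 4 members are shown, because Phgdh, Psat1 and Mthfd2 rose together in all but 1 of the main genotype comparisons below whereas Mthfd1 rose in none. Each line gives the 250 bases upstream of a RefSeq start on GRCm38.p6, read on the gene's own strand, with CCAAT or its reverse complement ATTGG in capitals. The Phgdh line covers chr3:98339970-98340219 (minus strand), the Psat1 line chr19:15925060-15925309 (minus strand, the start further upstream of 2 that RefSeq lists), the Mthfd2 line chr6:83317605-83317854 (minus strand) and the Mthfd1 line chr12:76254982-76255231 (plus strand).
Phgdh: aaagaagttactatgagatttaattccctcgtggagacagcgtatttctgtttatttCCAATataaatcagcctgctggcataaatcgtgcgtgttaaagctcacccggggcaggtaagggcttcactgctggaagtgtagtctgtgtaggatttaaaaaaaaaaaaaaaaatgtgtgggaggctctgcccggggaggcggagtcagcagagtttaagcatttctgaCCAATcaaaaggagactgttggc
Psat1: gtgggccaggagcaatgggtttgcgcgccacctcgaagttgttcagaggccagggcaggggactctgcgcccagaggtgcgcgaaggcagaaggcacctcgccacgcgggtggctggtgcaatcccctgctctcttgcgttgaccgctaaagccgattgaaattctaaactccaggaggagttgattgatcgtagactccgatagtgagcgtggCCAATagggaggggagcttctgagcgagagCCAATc
Mthfd2: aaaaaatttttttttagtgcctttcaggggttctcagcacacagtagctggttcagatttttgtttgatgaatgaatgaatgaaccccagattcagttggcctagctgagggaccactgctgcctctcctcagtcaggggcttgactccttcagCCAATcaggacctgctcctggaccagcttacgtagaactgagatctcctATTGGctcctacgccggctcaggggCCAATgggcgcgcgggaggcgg
Mthfd1: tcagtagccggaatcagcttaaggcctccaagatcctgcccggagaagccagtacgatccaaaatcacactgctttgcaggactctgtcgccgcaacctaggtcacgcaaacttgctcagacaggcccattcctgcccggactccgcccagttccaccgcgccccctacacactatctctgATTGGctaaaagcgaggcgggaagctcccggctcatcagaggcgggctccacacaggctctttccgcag

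These windows hold 2 copies of CCAAT in Phgdh, 2 in Psat1, 3 in Mthfd2 and 1 in Mthfd1, counting both strands. The same letters occurred 2 times in the windows of Psph and of Aldh1l1 and 1 time in that of Shmt1, and they were not in the windows of Mthfd1l and Shmt2 or in that of the other Psat1 start. CCAAT, a motif picked after the sequences had been seen, was present in 37.4% of the 32851 RefSeq promoters of 300 bases (250 upstream and 50 downstream of the start). Also searched on both strands were TGATGNAA, a composite pattern of Atf4 and C/EBP factors, CACGTG and TGACGTCA, which do not overlap CCAAT; these letters were in 3.97%, 7.15% and 1.79% of all promoters and in none of the member promoters. Aldh1l2 was not searched. A match describes letters only.

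Libraries summed to 55223041 to 83342809 counts each for Tfam islets, 16235173 to 55810879 for Clec16a islets and 41961114 to 56894510 for livers. Of the 4 targeted genes 3 were reduced. Tfam fell by 1.21 (log2) in the Tfam KO islets and fell by 2.004 in the Tfam KO livers, and in the Mfn DKO livers Mfn1 fell by 2.003 and Mfn2 fell by 2.04 (edgeR adjusted p = 3.76e-10, 1.39e-06, 2.64e-05 and 2.97e-05). The fourth, Clec16a, was not reduced in libraries that carry the KO label (log2 difference 0.13 on RFD, adjusted p = 0.612, and 0.08 on HFD, adjusted p = 0.740, edgeR). Which part of the gene was deleted is not in the labels, so gene-level counts may not check that label. Summed over the islet hormone genes Ins1, Ins2, Gcg, Sst and Ppy with Iapp and Chga, TPM ranged from 389062 to 631345 in the islets and was at most 0.142 in the livers, where hepatocyte markers summed to between 41848 and 134329 TPM.

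Levels of different members are compared as the authors' TPM, which divides by gene length. In control livers the cytosolic branch led: Aldh1l1 stood at 505 ± 151 TPM, Shmt1 at 156 ± 11.3 and Mthfd1 at 133 ± 9.49 (SD, n = 6 for each), next to 179 ± 27.8 TPM for the mitochondrial Shmt2. The remaining mitochondrial enzymes and serine synthesis were low there. Mthfd1l had 1.57 ± 0.6251 TPM, Mthfd2 0.746 ± 0.196, Aldh1l2 0.148 ± 0.0754, Phgdh 0.30 ± 0.147, Psat1 0.575 ± 0.366 and Psph 2.68 ± 0.381 (SD, n = 6). Shmt2 alone made up 98.6% ± 0.605 of the summed mitochondrial branch in control livers (SD, n = 6).

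In control islets Mthfd1 was the leading cytosolic enzyme at 74.3 ± 12.4 TPM in female Tfam controls (n = 5) and 61.9 ± 2.76 in Clec16a controls on RFD (n = 4), and made up between 98.4% and 98.8% of the cytosolic sum on average in the 4 control islet groups. Aldh1l1 and Shmt1 stayed at or under 1 TPM on average in those groups, between 0.188 and 0.505 for Aldh1l1 and between 0.373 and 0.990 for Shmt1. Mthfd2 led the mitochondrial branch in control islets with group means from 24.7 to 50.05 TPM. Islet and liver libraries come from separate experiments, so tissue and experiment cannot be told apart in these levels.

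**Figure D1:**
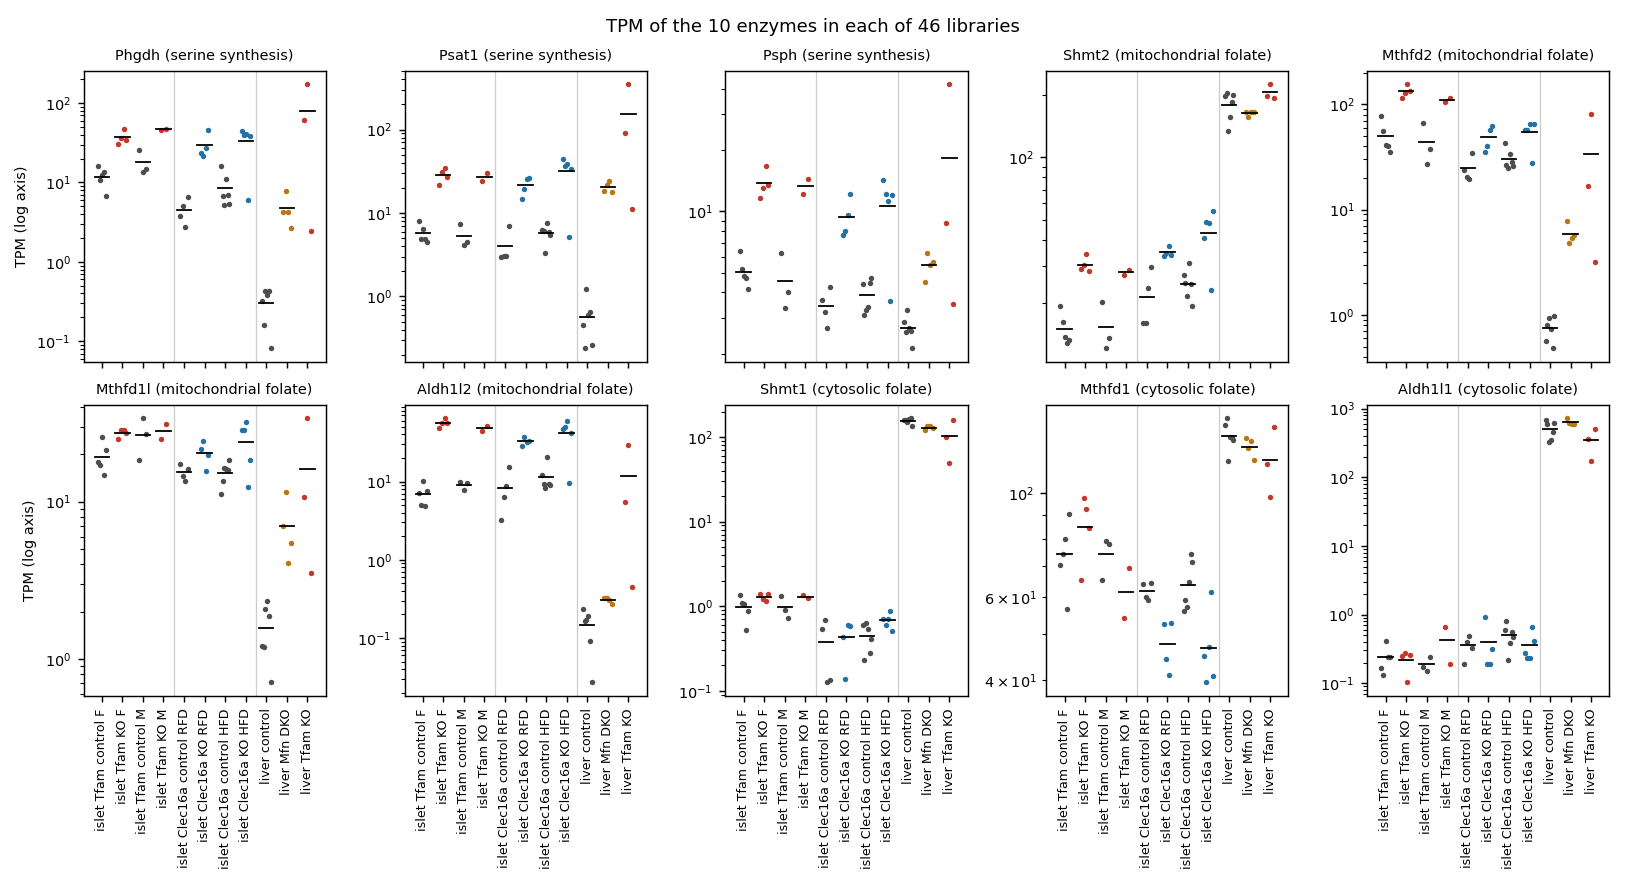
TPM of each of the 10 enzymes (log axis) in each of the 46 libraries, by group; points are libraries, horizontal lines are group means, gray is control, red Tfam KO, blue Clec16a KO and ochre Mfn DKO. Control livers sit lowest of all groups for Phgdh, Psat1, Mthfd2, Mthfd1l and Aldh1l2 and high for Shmt1, Mthfd1 and Aldh1l1.

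Ordered over the 11 groups, mean Mthfd2 TPM went from 133 ± 17.8 (SD, n = 4) in female Tfam KO islets and 110 ± 6.57 (n = 2) in male ones down to 5.92 ± 1.33 (n = 4) in Mfn DKO livers and 0.746 in control livers. The ranges of the female and male Tfam KO islets overlapped, as did those of each neighbouring pair from the Clec16a KO islets on HFD, at 54.6 ± 15.6 (n = 5), down to the Clec16a control islets on RFD, at 24.7 ± 6.86 (n = 4). The 3 Tfam KO livers, at 33.7 ± 41.8 TPM, fell within that stretch and spread across it. For Phgdh the Tfam KO livers came first with 79.5 ± 87.5 TPM, ahead of the male and female Tfam KO islets at 46.5 ± 1.21 and 37.4 ± 7.15, and neighbouring groups overlapped at every step down to the Clec16a controls on RFD. Control livers were set apart from their neighbour in the order for 6 of the 10 members, as the lowest group for Phgdh, Psat1, Mthfd2, Mthfd1l and Aldh1l2 and the highest for Shmt1. That order is on TPM. On TMM-scaled CPM the control livers, at 0.0994 to 0.867 of Aldh1l2, overlapped the Mfn DKO livers, at 0.788 to 0.932. The count of 6 of 10 was not made over all genes, so no share of all genes stands beside it. The 3 liver groups held the top 3 places for Shmt2, Shmt1, Mthfd1 and Aldh1l1.

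In islets of Tfam KO mice the 3 serine synthesis genes and 3 of the 4 mitochondrial folate genes rose, the largest change being that of Aldh1l2, and of the cytosolic branch Mthfd1 alone fell. These 7 called members compare with 20.9% of all 19752 tested genes called in either direction (11.6% higher, 9.29% lower) by edgeR's quasi-likelihood test with a threshold of 0.05 on the adjusted p. The median log2 fold change of the 10 members was 0.79, beside -0.01 for all genes tested. Values below are CPM on TMM-scaled library sizes, which correct for composition and serve to compare 1 gene between libraries of an experiment. In bulk RNA, fewer cells of a type and less RNA per cell cannot be told apart.

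Psat1 had 8.20, 10.8 and 15.0 CPM as lowest, median and highest of the 8 Tfam control islets, and 31.5, 43.3 and 52.1 in the 6 Tfam KO islets. All 6 KO libraries lay above every control, and the log2 fold change was 1.94 (SE 0.15, adjusted p = 1.17e-07, edgeR). For Aldh1l2 the controls had 16.9, 26.5 and 35.3 CPM and the KO libraries 124.8, 144.8 and 172.9, again without overlap, a log2 fold change of 2.44 (SE 0.14, adjusted p = 5.76e-09, edgeR). Aldh1l2, the mitochondrial enzyme that burns formyl groups, thereby went from 27.0 ± 6.48 (SD, n = 8) to 144.7 ± 18.7 CPM (SD, n = 6).

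Phgdh ran from 7.53 over 16.4 to 28.6 CPM in the controls and from 26.4 over 37.4 to 42.7 in the KO islets; 5 of the 6 KO libraries exceeded the highest control, and the log2 fold change was 1.16 (SE 0.19, adjusted p = 3.21e-04, edgeR). Mthfd2, the mitochondrial dehydrogenase, had 44.3, 75.7 and 118.3 CPM in controls and 137.5, 151.1 and 193.9 in KO islets, with no overlap (log2 1.0003, SE 0.17, adjusted p = 6.22e-04, edgeR). Male control 1 was high for both genes, the highest of the 8 controls for Phgdh and, at 104.1 CPM, next to female control 1 for Mthfd2. Psph (1.09, SE 0.13, adjusted p = 1.56e-05) and Shmt2 (0.59, SE 0.10, adjusted p = 4.40e-04) also rose without overlap.

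Mthfd1l, which releases formate, differed by -0.03 (SE 0.14, adjusted p = 0.912, edgeR), with 33.9 to 70.7 CPM in controls and 38.6 to 48.7 in KO islets. Of the cytosolic partners, Shmt1 differed by 0.03 (SE 0.16, adjusted p = 0.936) and Aldh1l1 by 0.01 (SE 0.39, adjusted p = 0.993). Mthfd1 had 129.3, 156.8 and 182.1 CPM in controls against 90.6, 122.1 and 157.1 in KO islets. The 2 groups overlapped, and its fall by 0.35 (SE 0.11, adjusted p = 0.0324, edgeR) was the smallest called change among the members. On library totals, a scale that moves the median of all genes by 0.20, Mthfd1 differed by -0.15 (adjusted p = 0.347), and its call was also lost without female control 5, male control 2 or 3, female KO 1 or male KO 1 or 2 (adjusted p up to 0.102).

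Females alone gave 6 called members, all higher, beside 10.8% of genes called (6.67% higher, 4.17% lower), and males alone 3 higher and 1 lower, beside 8.93% (5.24% higher, 3.69% lower). Psat1, Psph and Aldh1l2 rose in both sexes: Aldh1l2 by 2.63 (SE 0.16) in females and 2.07 (SE 0.21) in males. Mthfd1 differed by -0.61 in males (SE 0.18, adjusted p = 0.041, edgeR) and by -0.22 in females (SE 0.13, adjusted p = 0.321). Mean TPM of Mthfd1 was 84.9 in female KO and 74.3 in female control islets, and 61.7 and 74.1 in male ones. In the 2 male KO libraries Phgdh, Shmt2 and Mthfd2 differed by 1.04, 0.55 and 0.99 and just missed the threshold (adjusted p = 0.0533, 0.0564 and 0.0518, edgeR). Without male control 1, 7 members were called in males, with no share of all genes given for that fit. The interaction of genotype and sex called 0 of 10 members, with 0 at an unadjusted p under 0.05 and 0 by DESeq2, beside 0% of all genes. Its estimates ran from -0.56 (SE 0.27) for Aldh1l2 to 1.41 (SE 0.72) for Aldh1l1.

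**Figure D2:**
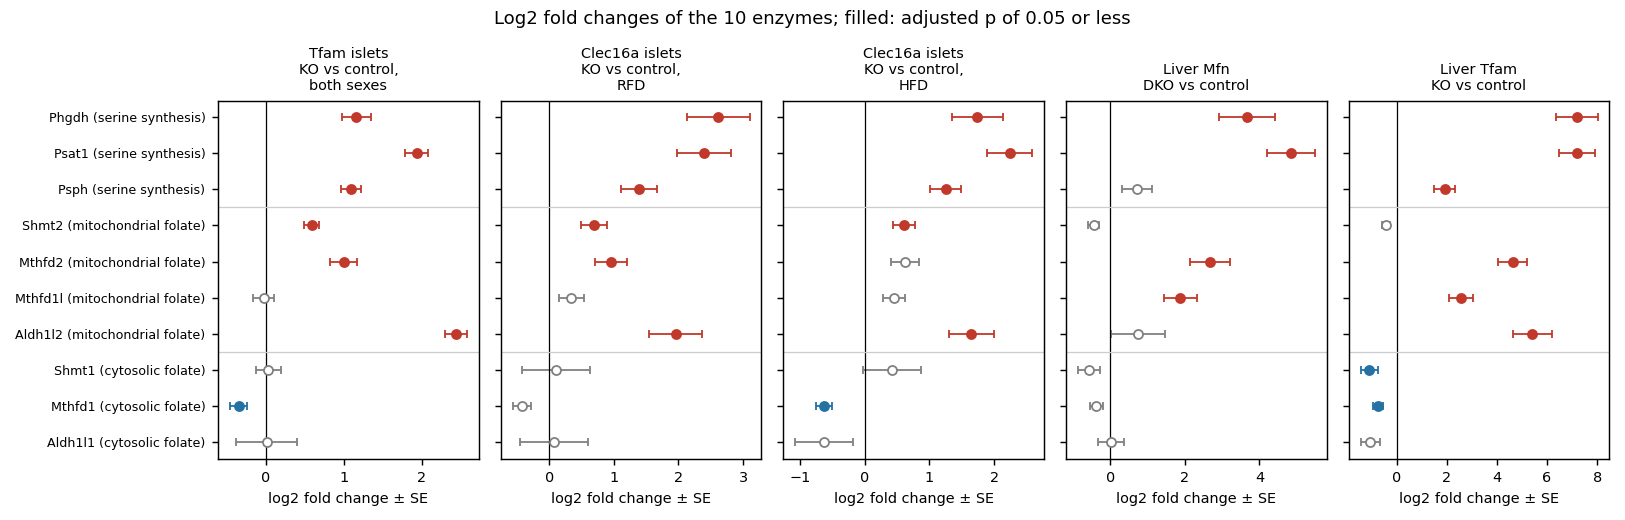
Log2 fold change (x axis) with its SE for the 10 enzymes (rows) in the 5 genotype comparisons (panels, each with its own scale); filled red and blue points are called higher and lower by edgeR (adjusted p up to 0.05), open gray points are not called. Serine synthesis and Mthfd2 lie to the right of 0 in every panel, while no cytosolic gene is called higher in any.

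In the libraries labelled Clec16a KO, serine synthesis rose on both diets, with Psat1 at more than 4 times its control level and Phgdh at 6.21 times on RFD and 3.31 times on HFD (ratios of mean CPM). Of the mitochondrial branch, Shmt2 and Aldh1l2 rose on both diets and Mthfd2 on RFD; Mthfd1 was the 1 member that fell, on HFD. On RFD 6 members were called, all higher, beside 7.52% of 17254 genes (3.99% higher, 3.54% lower). On HFD 5 were called higher and 1 lower, beside 9.57% (5.62% higher, 3.95% lower).

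Psat1 on RFD had 6.22, 7.07, 5.95 and 13.1 CPM in control replicates 1 to 4 and 29.6, 39.3, 50.3 and 51.0 in KO replicates 1 to 4. The lowest KO library was above the highest control, and the log2 fold change was 2.39 (SE 0.42, adjusted p = 0.00360, edgeR). Phgdh had 4.68, 6.87, 3.13 and 7.24 CPM in these controls and 28.1, 25.2, 31.0 and 51.7 in the KO libraries, a change of 2.62 (SE 0.48, adjusted p = 0.00438). Aldh1l2 had 11.9, 25.7, 29.9 and 50.2 CPM against 102.0, 133.1, 110.5 and 113.4, a change of 1.96 (SE 0.41, adjusted p = 0.00868). None of the 3 overlapped between genotypes on RFD.

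Mthfd2 had 41.2, 38.9, 31.2 and 53.2 CPM in the RFD controls and 58.0, 66.7, 93.2 and 100.2 in the KO libraries, which did not overlap either. Its change of 0.95 (SE 0.25, adjusted p = 0.0235, edgeR) lost its call without control 1 or 3 or KO 3 or 4 (adjusted p up to 0.0878). Psph, the last enzyme of serine synthesis, rose by 1.39 (SE 0.28, adjusted p = 0.00723). Shmt2 rose by 0.69 (SE 0.20, adjusted p = 0.0420), a call that held without control 4 and was lost when any other 1 library was left out (adjusted p up to 0.124).

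Mthfd1 on RFD had 140.0, 146.0, 119.1 and 126.4 CPM in controls and 110.6, 92.6, 84.4 and 107.8 in KO libraries. All KO libraries were below all controls, yet the difference of -0.43 (SE 0.14) did not pass over all genes (adjusted p = 0.0658, edgeR); DESeq2 gave an adjusted p of 0.0313, and a fit of these 2 groups alone 0.0448. Mthfd1l, Shmt1 and Aldh1l1 differed by 0.34 (SE 0.19), 0.11 (SE 0.53) and 0.07 (SE 0.52) with adjusted p of 0.307, 0.935 and 0.956. Shmt1 and Aldh1l1 had at most 1.47 and 1.94 CPM in this diet's libraries, and their errors are correspondingly wide.

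On HFD, 1 library decided several values. Psat1 had 7.24, 12.1 and 15.1 CPM as lowest, median and highest of the 6 controls, and 83.0, 65.3, 60.0, 10.2 and 64.6 in KO replicates 1 to 5. KO replicate 4 lay inside the control range and the other 4 above it. Since Clec16a counts do not check the KO label, whether this library's label is right cannot be told from these data, and the calls are given with and without it. The same replicate had 6.89 CPM of Phgdh, where the others had 36.9 to 48.4, and 32.7 CPM of Aldh1l2, where the others had 142.8 to 161.0. Of Mthfd1 it had 125.6 CPM, just below the lowest control, 126.7, whereas the other KO libraries had 73.2 to 88.6.

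With all libraries Psat1 rose by 2.24 (SE 0.35, adjusted p = 6.56e-04, edgeR), Phgdh by 1.74 (SE 0.39, adjusted p = 0.00891), Psph by 1.25 (SE 0.24, adjusted p = 0.00308), Aldh1l2 by 1.65 (SE 0.34, adjusted p = 0.00505) and Shmt2 by 0.60 (SE 0.17, adjusted p = 0.0307). Mthfd1 fell by 0.62 (SE 0.12, adjusted p = 0.00318), and here 5 of 5 KO libraries were below all 6 controls. Without KO replicate 4, 8 members were called, with no share of all genes given for that fit. Replicate 4 was singled out by its values of these same members, so the fit without it is no independent support for their calls. In that fit the changes were as follows. Psat1 rose by 2.51, Aldh1l2 by 1.90, Psph by 1.47 and Shmt2 by 0.75, and Phgdh kept its call. Mthfd2 rose by 0.78 (adjusted p = 0.00563, edgeR) and Mthfd1l by 0.60 (adjusted p = 0.00264), and Mthfd1 fell by 0.78. With KO replicate 4 included, Mthfd2 differed by 0.62 (SE 0.21, adjusted p = 0.0657) and Mthfd1l by 0.45 (SE 0.16, adjusted p = 0.0928). Both were called on library totals (adjusted p = 0.0202 and 0.0327), which move the median of all genes by 0.12. Mthfd2 was also called without control 1 (adjusted p = 0.0141), and the call of Shmt2 was lost without control 2, 3, 5 or 6 or KO 1, 2, 3 or 5 (adjusted p up to 0.105).

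File names give a sequencing lane for these libraries, and the genotypes were split over both lanes. On RFD the Psat1 difference in mean log2 CPM was 2.68 in lane 7 (3 KO, 2 control) and 2.16 in lane 8 (1 KO, 2 control), and on HFD 2.72 (2 KO, 3 control) and 1.498 (3 KO, KO replicate 4 among them, and 3 control). The Mthfd1 difference was -0.51 and -0.41 on RFD and -0.64 and -0.67 on HFD. With the lane as a covariate, Shmt2 on RFD was the 1 genotype call lost (adjusted p = 0.0646) and Mthfd2 on HFD the 1 gained (adjusted p = 0.0441).

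**Figure D3:**
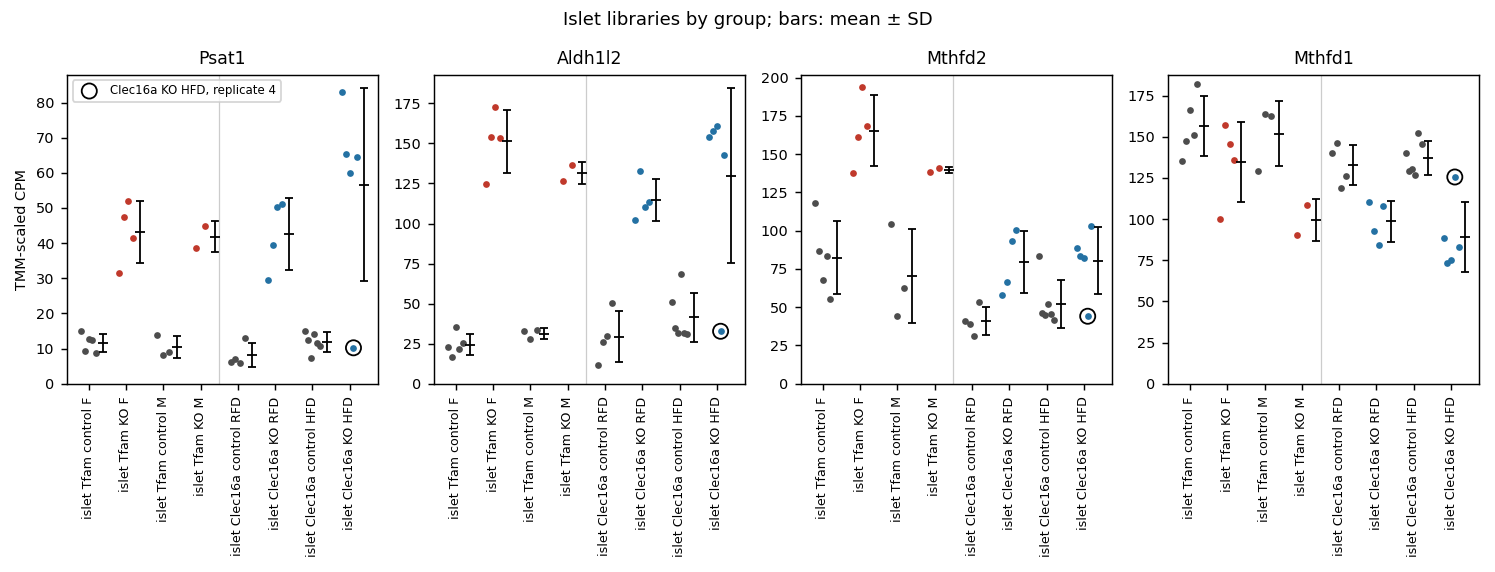
TMM-scaled CPM of Psat1, Aldh1l2, Mthfd2 and Mthfd1 in each of the 33 islet libraries; points are libraries, bars are group mean ± SD, the vertical line separates the 2 experiments, and the ring marks Clec16a KO HFD replicate 4. The ringed library lies among the controls for Psat1, Aldh1l2 and Mthfd2 and just under them for Mthfd1, while the other KO libraries of Psat1 and Aldh1l2 lie above every control of their experiment.

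Diet moved no member past the threshold. HFD against RFD called 0 members in Clec16a controls (1 at an unadjusted p under 0.05, 0 by DESeq2), beside 0.0406% of all genes (0.0058% higher, 0.0348% lower), and 0 in the Clec16a KO libraries (0 unadjusted, 0 by DESeq2), beside 0.0116%. Phgdh had the largest difference in controls, 0.92 (SE 0.44, adjusted p = 0.879, edgeR), from 3.13 to 7.24 CPM on RFD and from 6.12 over 8.14 to 22.9 on HFD. Psat1 differed by 0.55 (SE 0.38) between diets in controls and by 0.40 (SE 0.37) in KO libraries. The interaction of genotype and diet called 0 of 10 (0 unadjusted, 0 by DESeq2), beside 0% of all genes, with Phgdh at -0.88 (SE 0.61).

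In Mfn DKO livers, Psat1 and Phgdh rose from low levels, and of the mitochondrial branch Mthfd2 and Mthfd1l rose. These 4 members, all higher, compare with 9.87% of 17024 genes called (5.23% higher, 4.64% lower). No cytosolic gene was called in this fit, in which all liver groups share the same estimate of the spread. Shmt1 and Mthfd1 lay below all controls and were called when the Tfam KO livers were left out, as given below. The 6 controls had 0.475, 1.05 and 2.46 CPM of Psat1 as lowest, median and highest, and Mfn DKO replicates 1 to 4 had 30.5, 34.7, 38.2 and 28.7. All 4 were more than 10-fold above the highest control, and the log2 fold change was 4.85 (SE 0.64, adjusted p = 9.79e-04, edgeR). Phgdh went from 0.0994, 0.410 and 0.495 CPM in controls to 4.04, 7.44, 3.97 and 2.56, a change of 3.67 (SE 0.74, adjusted p = 0.0108).

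Mthfd2 had 0.738, 1.24 and 1.66 CPM in controls and 10.5, 6.30, 6.998 and 7.58 in Mfn DKO livers (log2 2.68, SE 0.53, adjusted p = 0.00975, edgeR). For Mthfd1l the controls had 1.54, 3.13 and 4.71 CPM and the Mfn DKO livers 12.03, 19.3, 6.78 and 9.30 (1.88, SE 0.44, adjusted p = 0.0215); this call was lost without Mfn DKO 1 or 2 (adjusted p up to 0.0762). Neither gene overlapped between the groups. Aldh1l2, the member with the largest change in Tfam KO islets, had 0.788 to 0.932 CPM in Mfn DKO livers and 0.0994 to 0.867 in controls, a difference of 0.75 (SE 0.73, adjusted p = 0.533).

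Psph (0.72, SE 0.39, adjusted p = 0.254), Shmt2 (-0.44, SE 0.15, adjusted p = 0.0718), Shmt1 (-0.57, SE 0.29, adjusted p = 0.226) and Mthfd1 (-0.38, SE 0.17, adjusted p = 0.176) were not called, although Psph lay above all controls in the 4 Mfn DKO livers and Shmt1 and Mthfd1 below them. Shmt1, for example, had 259.2 to 303.1 CPM in controls and 180.8, 196.6, 194.3 and 190.1 in the Mfn DKO livers. When the control and Mfn DKO livers were fitted without the Tfam KO livers, 8 members were called, with Psph at an adjusted p of 0.00255, Shmt1 at 3.75e-04, Mthfd1 at 0.00870 and Shmt2 at 0.0293 (edgeR). No share of all genes is given for that fit, so its 8 calls cannot be set beside one. Leaving out control 3 also put Shmt2 past the threshold (adjusted p = 0.0349). Library totals move the median of all genes by 0.21, and on them Shmt1 differed by -0.38 and Mthfd1 by -0.18.

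In Tfam KO livers serine synthesis and the same mitochondrial genes also rose, joined by Psph and Aldh1l2, and the cytosolic Shmt1 and Mthfd1 fell. These 6 higher and 2 lower members stand beside 29.3% of genes called (18.1% higher, 11.3% lower). Phgdh had 48.9, 104.3 and 2.26 CPM in Tfam KO replicates 1 to 3, against at most 0.495 in the controls, a change of 7.19 (SE 0.82, adjusted p = 2.85e-04, edgeR). Psat1 had 124.6, 360.6 and 17.9 CPM against at most 2.46, a change of 7.19 (SE 0.71, adjusted p = 1.26e-04). Both genes were above every control in all 3 libraries, and the highest and the lowest of the 3 differed by more than 10-fold.

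Replicate 2 was the highest and replicate 3 the lowest of the 3 for each raised gene. Mthfd2 had 18.6, 68.2 and 4.09 CPM (log2 4.63, SE 0.58, adjusted p = 4.97e-04, edgeR), Aldh1l2 13.2, 52.1 and 1.25 (5.41, SE 0.77, adjusted p = 9.24e-04) and Mthfd1l 15.1, 36.2 and 5.84 (2.56, SE 0.47, adjusted p = 0.00278). Without replicate 2 the changes were 6.18 for Phgdh, 5.96 for Psat1, 3.22 for Mthfd2, 3.80 for Aldh1l2 and 1.71 for Mthfd1l, and all 5 were still called. In replicate 3 these values of Mthfd2, Aldh1l2 and Mthfd1l were still above the highest controls, which were 1.66, 0.867 and 4.71 CPM. Psph had 12.2, 43.9 and 5.68 CPM, the last inside the control range of 4.52 to 6.63; it rose by 1.92 (SE 0.42, adjusted p = 0.00591), and the call was lost without replicate 2 (0.72, adjusted p = 0.0573).

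For the genes that fell, the order of the libraries was the reverse. Shmt1 had 123.0, 46.6 and 227.6 CPM in replicates 1 to 3, against 259.2, 286.7 and 303.1 in the controls, and fell by 1.10 (SE 0.33, adjusted p = 0.0272, edgeR). Mthfd1 had 164.2, 104.9 and 228.9 CPM against 242.9, 274 and 304.9, and fell by 0.73 (SE 0.19, adjusted p = 0.0150). All 3 Tfam KO livers were below all controls for both. Without replicate 1 the calls of Shmt1 and Mthfd1 were lost (adjusted p = 0.0872 and 0.0511), as was that of Shmt1 with the Mfn DKO livers left out of the fit (adjusted p = 0.0684).

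Aldh1l1, the most abundant member in liver, had 529.4, 190.7 and 844.8 CPM in the Tfam KO livers and 678.3, 1078 and 1536 in controls; the ranges overlapped, and the difference of -1.04 (SE 0.40) missed the threshold (adjusted p = 0.0632, edgeR). Without replicate 3 Aldh1l1 fell by 1.60 (adjusted p = 0.00885, edgeR), Shmt2 was called as well and all 10 members passed, with no share of all genes given for that fit. Shmt2 had 196.9, 168.4 and 223.7 CPM, with replicate 2 below the control range of 194.6 to 303.7 and the others inside it, and differed by -0.41 (SE 0.16, adjusted p = 0.0694) on the TMM scale but by 0.00184 (adjusted p = 0.993) on library totals, which move the median of all genes by 0.46. On library totals Mthfd1 differed by -0.36 (adjusted p = 0.0510) and Shmt1 fell by 0.78 (adjusted p = 0.0315).

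Tfam itself was at 15.0, 13.1 and 15.9 CPM in Tfam KO replicates 1 to 3, against 54.2 to 66.2 in controls, a narrow spread beside that of the 10 members. Summed hepatocyte markers stood at 81693, 41848 and 112382 TPM in the same order, against 89722 to 134329 in controls; their part in the result was not tested. Aldh1l1 also split the 6 controls by the level of Xist, which is transcribed in females: the 3 controls with Xist under 1 CPM (replicates 1, 2 and 6) had 1536, 1252 and 1359 CPM of Aldh1l1, and the 3 with Xist of 380.3 CPM or more had 678.3, 727.3 and 904.9. Other members differed by Xist as well: controls with and without Xist averaged 222.4 and 299.7 CPM of Shmt2, and 4.22 and 2.22 of Mthfd1l. For Psat1 these controls averaged 1.61 and 0.660 CPM and for Phgdh 0.467 and 0.224, low levels that enter the differences below. Aldh1l1 in Mfn DKO livers differed from controls by 0.44 with Xist, above them, and by -0.29 without it, overlapping (mean log2 CPM). Tfam KO replicate 1 had Xist under 1 CPM and replicates 2 and 3 had 781.1 and 787.8. Shmt2 in Tfam KO livers differed from controls by -0.19 with Xist, overlapping, and by -0.61 without it, below its controls (mean log2 CPM). Within the libraries with Xist, Psat1 differed from controls by 5.73 (2 Tfam KO, 3 control; mean log2 CPM) and Shmt1 by -1.46, and within those without it by 7.63 and -1.20 (1 Tfam KO, 3 control).

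**Figure D4:**
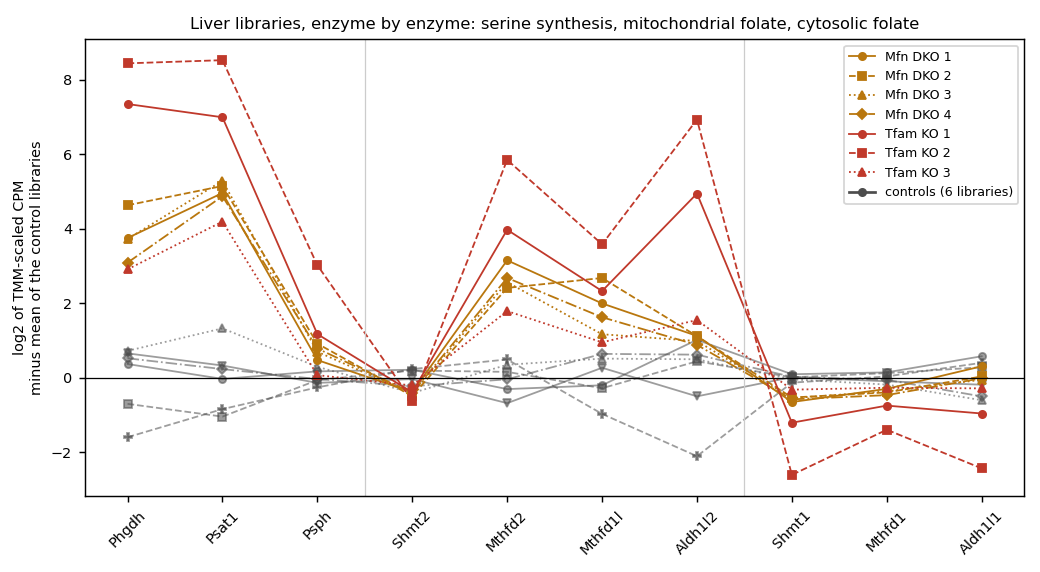
Log2 of TMM-scaled CPM minus the mean of the 6 control libraries (y axis) for the 10 enzymes (x axis, grouped by branch) in each of the 13 liver libraries; each line is 1 library, with lines serving only to connect its points. Tfam KO replicate 2 is farthest from 0 for all raised genes and for Shmt1, Mthfd1 and Aldh1l1, while the 4 Mfn DKO livers run close together.

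Compared with each other, the knockout livers differed in 1 called member, beside 0.294% of genes (0.106% higher, 0.188% lower): Aldh1l2 was 4.67 (SE 0.87, adjusted p = 0.0449, edgeR) higher in Tfam KO than in Mfn DKO livers, at 13.2, 52.1 and 1.25 CPM against 0.788 to 0.932. That call rested on the full set of libraries. It was lost without Mfn DKO 1, 2, 3 or 4 or Tfam KO 1 or 2 (adjusted p up to 0.179, edgeR). Without Tfam KO 3 the number of called members was 8, with no share of all genes given for that fit. Psat1 (2.35, SE 0.69, adjusted p = 0.109) and Phgdh (3.53, SE 0.81, adjusted p = 0.0900) did not pass.

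The branches were then set against each other as the log2 ratio of TPM of each mitochondrial enzyme over its cytosolic partner within a library, a description with no test. Mthfd2 over Mthfd1 averaged -0.70 ± 0.62 (SD, n = 8) in Tfam control islets and 0.72 ± 0.19 (n = 6) in Tfam KO islets, without overlap. Mthfd2 was ahead in all 6 KO islets and in 2 of the 8 controls, female control 1 at 0.15 and male control 1 at 0.036. In Clec16a islets on RFD the ratio went from -1.36 ± 0.32 (n = 4) to 0.01 ± 0.47 (n = 4), also without overlap, and on HFD from -1.09 ± 0.39 (n = 6) to 0.18 ± 0.76 (n = 5), where KO replicate 4 at -1.16 lay among the controls.

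In livers Mthfd1 stayed ahead in every library, but by much less in the knockouts. The ratio of Mthfd2 over Mthfd1 was -7.51 ± 0.46 (n = 6) in controls, -4.43 ± 0.28 (n = 4) in Mfn DKO and -2.84 ± 2.59 (n = 3) in Tfam KO livers, and the highest Tfam KO library reached -0.27. Both knockout groups lay above all controls. Mthfd1l over Mthfd1 behaved alike, at -6.51 ± 0.69, -4.27 ± 0.64 and -3.42 ± 1.88 in the 3 groups, whereas in Tfam islets it overlapped, at -1.79 ± 0.31 (n = 8) in controls and -1.45 ± 0.28 (n = 6) in KO islets.

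Shmt2 over Shmt1 averaged 0.18 ± 0.28 in control, 0.33 ± 0.10 in Mfn DKO and 1.16 ± 0.95 in Tfam KO livers, and 3.98 ± 0.30 (n = 8) and 4.52 ± 0.22 (n = 6) in Tfam control and KO islets; groups overlapped in all 5 genotype comparisons. Aldh1l2 over Aldh1l1 spanned the widest range, from -11.96 ± 1.35 in control livers to 7.75 ± 1.04 in Tfam KO islets, where controls had 5.18 ± 0.51 and did not overlap. In the Tfam KO livers it was -6.26 ± 3.77, above all controls, and in the Mfn DKO livers -11.01 ± 0.12, within the control range. Both ends of that range rest on a term near the floor. Aldh1l2 had 0.0270 to 0.236 TPM in control livers, and Aldh1l1 had 0.102 to 0.667 in Tfam KO islets. Shmt1 was low in Tfam islets as well, at 0.516 to 1.39 TPM.

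Summed over the branches, mitochondrial over cytosolic TPM was 1.32 (log2) higher in Tfam KO than in control islets (1.61 ± 0.19 against 0.29 ± 0.35), 1.38 higher in Clec16a KO islets on RFD (1.501 ± 0.27 against 0.12 ± 0.31) and 1.37 higher on HFD (1.70 ± 0.85 against 0.33 ± 0.29, overlapping through KO replicate 4). The liver groups parted here: the ratio was 0.21 lower in Mfn DKO livers (-2.33 ± 0.09 against -2.12 ± 0.11, overlapping) and 1.08 higher in Tfam KO livers (-1.05 ± 1.12, above all controls, with replicate 3 at -1.99 next to the highest control at -2.02), the latter falling to 0.46 without replicate 2. In Mfn DKO livers Shmt2 made up 92.5% ± 1.82 of the mitochondrial sum and Aldh1l1 71.1% ± 2.28 of the cytosolic one (SD, n = 4). In Tfam KO livers the share of Shmt2 was 81.1% ± 18.2 (SD, n = 3), with replicate 2 the lowest at 61.0%.

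**Figure D5:**
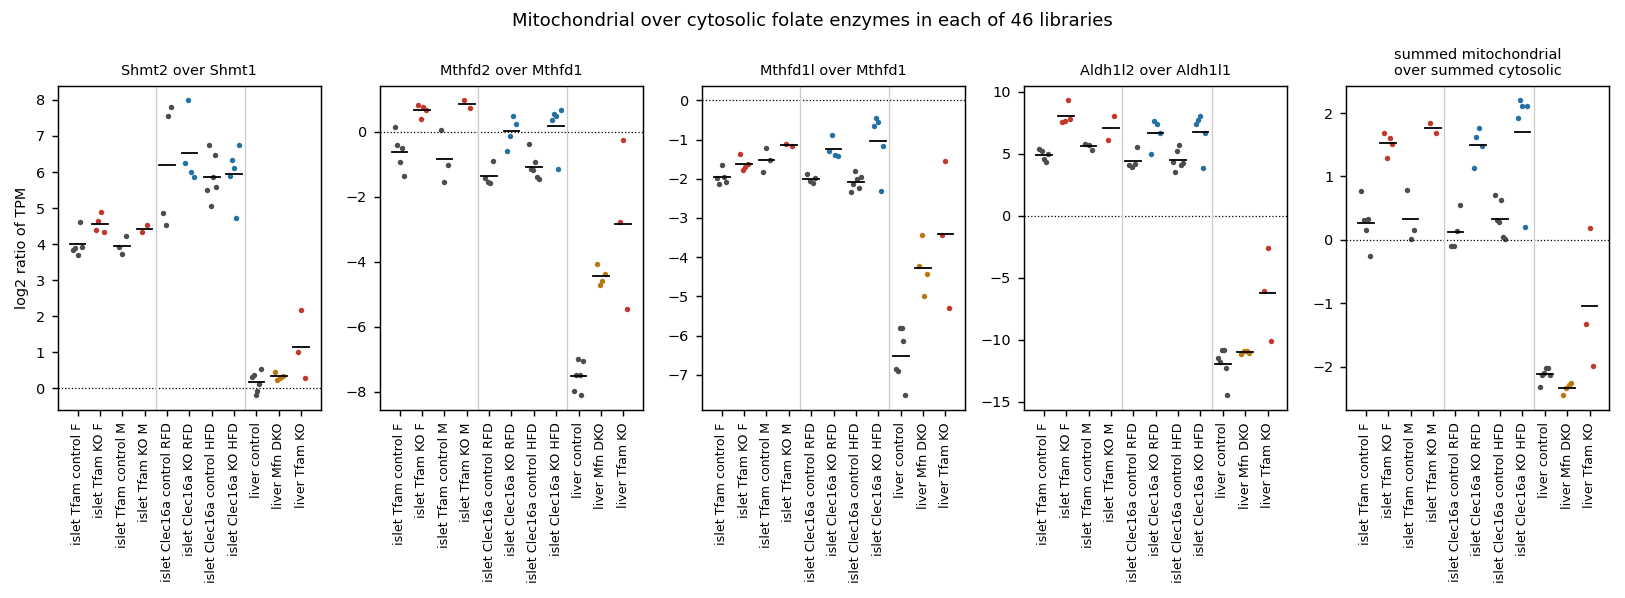
Log2 ratio of TPM (y axis) of mitochondrial over cytosolic folate enzymes in each of the 46 libraries by group, for 4 enzyme pairs and for the summed branches; points are libraries, horizontal lines group means, colors as in the plot of TPM by group, and 0 means equal TPM. Within each experiment and diet, Mthfd2 over Mthfd1 is higher in knockout than in control libraries, apart from Clec16a KO HFD replicate 4, which lies among its controls.

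Other genes of the pathways were followed as lists. Of 6 stress response factors, 5 rose in Tfam KO islets, beside 11.6% of all genes called higher. Log2 changes were 2.80 for Ddit3, 1.64 for Cebpb, 1.86 for Myc and 1.14 for Atf5 (adjusted p = 1.21e-09, 2.03e-08, 1.94e-06 and 2.73e-06, edgeR). On RFD 3 of 6 rose in Clec16a KO islets, Cebpb by 1.58, Atf4 by 0.67 and Atf5 by 1.01, beside 3.99% of all genes called higher. On HFD 3 rose and 1 fell, beside 5.62% of all genes called higher and 3.95% lower. Atf4, the factor known to drive serine synthesis genes, rose by 0.96 in Tfam KO livers (SE 0.21, adjusted p = 0.00570, edgeR). There 4 of 6 rose, beside 18.1% of all genes called higher. In Mfn DKO livers 2 of 6 rose, beside 5.23% of all genes called higher. These were Atf5 by 2.22 (adjusted p = 0.00123, edgeR) and Ddit3 by 1.64 (adjusted p = 0.0250), while Atf4 differed by 0.22 (SE 0.19, adjusted p = 0.485).

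In the wider folate cycle, 2 of 17 genes tested rose in Tfam KO islets and 2 fell, beside 20.9% of all genes called there: the folate carrier Slc19a1 by 0.57 and Mtrr, which reactivates methionine synthase, by 0.35, against falls of 0.54 for Mthfd2l, a mitochondrial paralog of Mthfd2, and 0.42 for the folate receptor Folr1. The median of the 17 was 0.02, beside -0.01 for all genes. Tfam KO livers had 4 of 18 higher and 4 lower, beside 29.3% of all genes called, with the purine enzymes Atic (0.98) and Gart (0.57) up and Ftcd, which feeds histidine carbon into folate, down by 0.73. In Mfn DKO livers Ftcd had the smallest adjusted p of the 18, at -0.55 (adjusted p = 0.0620).

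A list of 19 genes of glycine and serine use was followed next. The serine transporter Slc1a4 rose in all 5 genotype comparisons, by 1.05 in Tfam KO islets, 1.25 and 0.81 in Clec16a KO islets on RFD and HFD, 1.82 in Mfn DKO and 2.21 in Tfam KO livers (adjusted p = 0.0269, 0.0124, 0.0378, 0.0175 and 0.00391, edgeR). The glycine transporter Slc6a9 rose by 2.14 in Tfam KO islets and by 1.22 and 1.19 in Clec16a KO islets on RFD and HFD. Gldc, an enzyme of mitochondrial glycine cleavage, rose by 1.33 and 2.03 in Clec16a KO islets on RFD and HFD and by 0.81 in Mfn DKO livers. In all, 3 of 17 genes of this list rose in Tfam KO islets, beside 11.6% of all genes, and 3 of 16 on each Clec16a diet, beside 3.99% on RFD and 5.62% on HFD. In Tfam KO livers 3 of 18 rose and 3 fell, beside 18.1% of all genes higher and 11.3% lower.

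Of the methionine cycle, Ahcy rose by 0.72 in Tfam KO islets (adjusted p = 3.23e-04, edgeR), the 1 called gene of 8 tested, beside 20.9% of all genes. It fell by 0.89 in Tfam KO livers (adjusted p = 0.0266, edgeR), the 1 called of 10, beside 29.3% of all genes. Both counts lie below the share of all genes called. Mat2a, which makes S-adenosylmethionine outside the liver, rose in Clec16a KO islets by 0.55 on RFD and 0.64 on HFD, where Ahcyl1 fell by 0.55 and 0.49.

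Markers of other cell types moved with genotype as well. In Clec16a KO islets all 5 endothelial markers rose on both diets, with the summed level at 51.3 to 64.4 TPM in controls and 91.9 to 102.7 in KO libraries on RFD and at 52.5 to 77.9 and 66.6 to 144.9 on HFD, and none of the 5 at 0. Fibroblast markers rose for 2 of 6 on RFD, 4 of 6 on HFD and 2 of 6 in Tfam KO islets. In Tfam KO islets 5 of 7 islet endocrine markers fell, Ins1 by 1.26, Ins2 by 0.93, Chga by 0.83 and Sst by 0.53, and their summed level was 479774 to 562002 TPM in controls and 389062 to 428025 in KO islets of both sexes. In livers 6 of 6 cycling-cell markers rose in Mfn DKO and 4 of 6 in Tfam KO, from a summed 2.03 to 4.12 TPM in controls to 10.2 to 26.0 and 7.72 to 14.3. Beside these counts, 3.99% of all genes were called higher in Clec16a KO islets on RFD and 5.62% on HFD. In Tfam KO islets 11.6% of all genes were called higher and 9.29% lower. Of all genes in Mfn DKO and Tfam KO livers, 5.23% and 18.1% were called higher. The part of these cell types in the changes of the 10 members was not tested. With an acinar marker score as a covariate the calls of Phgdh, Psat1 and Psph in Tfam islets and on both Clec16a diets were kept.

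Across all 46 libraries, each expressed as log2 CPM minus the mean of its own experiment's controls, Phgdh and Psat1 had a Pearson r of 0.96, Mthfd2 and Psat1 0.94 and Phgdh and Mthfd2 0.92, while Mthfd1 ran opposite, at -0.77 with Phgdh and -0.80 with Psph. Shmt2 had an r of -0.09 with Phgdh, -0.17 with Mthfd2, 0.39 with Psph, 0.24 with Aldh1l2 and -0.47 with Mthfd1l. Each r pools islets and livers, and none was computed within an experiment. Shmt2 went different ways in them: it rose by 0.59 in Tfam KO islets and by 0.69 and 0.60 in Clec16a KO islets on RFD and HFD. In Mfn DKO and Tfam KO livers it differed by -0.44 and -0.41 and was not called. The genes most like Mthfd2 among 14504 were Aldh18a1 (r = 0.957), an enzyme of proline synthesis, Sars (0.955), the tRNA synthetase that charges serine, Psat1 (0.945), the amino acid transporter Slc7a1 (0.935) and Septin11 (0.926). For Phgdh they were Psat1 (0.962), Aldh18a1 (0.944), Septin11 (0.941), Pvr (0.941) and Slc7a1 (0.940), and for Aldh1l2 the transporters Slc7a5 (0.921) and Slc7a11 (0.892), with Agap1 (0.913), Eif3c (0.888) and Eif4g3 (0.885). These correlations describe libraries that share genotype, tissue and run, and carry no test.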

How the data were processed

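RNA of 46 mouse islet and liver libraries was sequenced. The deposited values are whole-number counts per gene and TPM, made by the authors with 1 library to a file and no pooling; per the submitters' processing notes the tools were STAR 2.6.1b, RSEM 1.3.1, featureCounts, DESeq2, FastQC and MultiQC, with the build GRCm38 and no roles given. In the deposited TPM each member had 1 length in all libraries, so TPM is used between genes and counts within a gene.

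Counts were tested in R 4.3.3 with edgeR 4.0.16 (TMM scaling, filterByExpr, quasi-likelihood F-test), each experiment fitted alone and the pooled Tfam islets with sex as a term. All groups of an experiment share the same estimate of the spread, also those outside a comparison. In all, 12 comparisons were made, and p was adjusted over all genes tested in each (Benjamini-Hochberg, called at 0.05 or less). Errors written SE are derived from the test: the absolute log2 fold change divided by the square root of its F statistic. Levels and fold changes come from the same counts on TMM-scaled library sizes. Ratios of branches have no test. The fit was tested on simulated data. Total counts differ between libraries, and low counts limit the precision for Shmt1 and Aldh1l1 in islets and for Phgdh and Aldh1l2 in control livers.

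The members and the gene lists were chosen with earlier results of these data known. The genes named are the 10 members, the targeted genes and at most the 4 smallest adjusted p of each list of related genes or cell markers per comparison, with the 5 most alike genes for Mthfd2, Phgdh and Aldh1l2 by Pearson correlation of log2 CPM (prior count 2). Alternatives were DESeq2 size factors, DESeq2 1.42.0, no filter, a replicate block, Xist, lane, acinar and sex terms, only the groups compared, each library left out in turn, and library totals as the scale. Nothing says that replicates with the same number share a mouse or a day. The median correlation of their residuals was 0.0653 in Tfam islets, -0.0163 in Clec16a islets and 0.0873 in livers. Single pairs ran from -0.153 to 0.212, from -0.253 to 0.307 and from -0.343 to 0.350. Replicates with different numbers were not correlated for reference, so these values cannot decide whether numbers mark pairs. For want of a label that says so, the numbers were not taken as pairs. Promoters are from RefSeq (GRCm38.p6). Aldh1l2 promoters and protein sequences were not used here.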

Additional observations from a re-analysis of the deposited data

Results flagged for a closer look

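In 80 sets of 4 to 6 libraries, 1 per member and group, a library whose TMM-scaled CPM stood far from the others of its group was looked for, and chance alone gives about 1 in 20. All 7 such values were in Clec16a islets.

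Clec16a KO HFD replicate 4 had 6.89 CPM of Phgdh, below the 36.9 to 48.4 of the other 4 libraries of its group. The same library had 32.7 CPM of Aldh1l2, where the others had 142.8 to 161.0. Clec16a control HFD replicate 1 had 22.9 CPM of Phgdh and 83.7 of Mthfd2, above the 6.12 to 12.1 and 41.3 to 52.1 of the other 5 controls. Among the RFD controls, replicate 3 was low for Psph (5.25 CPM, others 7.63 to 8.10) and replicate 4 was high for Psat1 (13.1 CPM, others 5.95 to 7.07). Clec16a KO RFD replicate 1 had 1.94 CPM of Aldh1l1, the others 0.401 to 0.653.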

How the results depend on the processing

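Over the 42 results in which a member was called, 701 alternative fits kept the direction and the call in 639, lost the call in 62 and reversed the direction in 0. Library totals as the scale were added after seeing the data. The cause of the changes below was not tested. Counts from alternative fits are given without the share of all genes called in the same fit. Libraries named for extreme values of members were found by those values, so fits without them are no independent support.

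In males of the Tfam islets 4 members were called, 7 with no filter, 7 by DESeq2 and 3 to 7 with 1 library left out (7 without male control 1). Between the knockout livers 1 was called, 4 on library totals, 4 by DESeq2, 0 with a replicate block, 0 with Xist as a covariate, 0 with only these groups fitted and 0 to 8 with 1 library left out. With the replicate block the count went from 4 to 0 for Mfn DKO and from 8 to 3 for Tfam KO livers against controls, although nothing shows that the replicate numbers pair libraries. With only the groups compared it was 8 for Mfn DKO. The summed branch ratio in Tfam KO livers ranged from 0.46 to 1.55 with 1 library left out.

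Differences that were not called and changed sign were those of Mthfd1l in Tfam islets (0.18 on library totals, 0.027 with the block, -0.087 to 0.054 leaving out 1 library), Shmt1 there (-0.012 with the block, -0.038 to 0.10) and Aldh1l1 there (-0.000913 with DESeq2 size factors, -0.00814 by DESeq2, -0.12 with the acinar score, -0.48 to 0.20). On RFD these were Shmt1 (-0.00224 with the lane, -0.20 to 0.73) and Aldh1l1 (-0.10 with the block, -0.022 with the lane, -0.65 to 0.33). In livers Aldh1l1 in Mfn DKO (-0.00203 with DESeq2 size factors and -0.00203 by DESeq2, -0.10 to 0.13) and Shmt2 in Tfam KO (0.00184 on library totals) changed sign. Depth limits Shmt1 and Aldh1l1 in islets, at under 3 CPM in every library, and Phgdh and Aldh1l2 in control livers, at under 1 CPM.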
